A study of Danio rerio with 2 samples.

Results

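Immediate early genes are transcribed shortly after a cell receives a growth factor, cytokine, mechanical or stress signal, before new protein is made. Most encode transcription factors: Fos and Jun proteins pair to form AP-1, Egr1 is a zinc finger factor, and Atf3 is a stress-induced factor of the ATF/CREB family. Others encode feedback regulators such as Socs3, an inhibitor of JAK-STAT signalling. Handling and enzymatic dissociation of tissue are known to induce these genes in single-cell preparations, and in vessels and endocardium they also respond to blood flow.

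The 10 genes described here were *fosab*, *fosb*, *junba*, *junbb*, *jund*, *egr1*, *ier2a*, *ier2b*, *atf3* and *socs3a*, taken by symbol from the 32057 genes of the deposited tables. All 10 were found once in each table, and their Ensembl identifiers are given where each gene is described. Both zebrafish samples carried Tg(kdrl:nls-mCherry), which marks endothelial and endocardial nuclei, and Tg(cd41:GFP), which marks blood progenitors and thrombocytes. One library came from hearts at 72 hours post fertilization (hpf) and the other from hearts at 48 hpf. Dissected hearts were shaken in dissociation enzymes for 20 minutes at 30 °C, and live mCherry-positive cells, with or without GFP, were sorted and pooled for 3′ droplet sequencing. No sample left undissociated was analysed here, and there was 1 library per age, so no difference between ages or cell groups could be tested. Intervals given below are exact 95% intervals that cover counting error only.

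The library at 72 hpf held 4125 cells with a median of 6316 unique molecular identifiers (UMIs) per cell, and that at 48 hpf held 2665 cells with a median of 10411 UMIs. All 12 endothelial markers checked were found in both libraries, summing to 3632 CPM at 72 hpf and 3340 CPM at 48 hpf, while cardiomyocyte markers summed to 173 CPM at 72 hpf and 110 CPM at 48 hpf. These levels are pooled CPM, counts per 1000000, that is the UMIs of a gene in a group over all UMIs of its cells, and a UMI stands for 1 captured 3′ end whatever the length of the transcript. The 2 libraries shared 4 cell barcodes. The median share of mitochondrial UMIs was 0.381% at 72 hpf and 0.813% at 48 hpf. Clustering, done without these 10 genes or the related genes listed below, gave 18 clusters, of which 15 drew 90% or more of their cells from 1 library. They were merged into 12 cell groups of at least 20 cells at 72 hpf and 6 at 48 hpf, of which 4 occurred at both ages. The *cxcr4b*/*efemp2b* cells were 1 cluster holding 75 cells at 72 hpf and 114 at 48 hpf. The other 3 groups found at both ages joined clusters of the same name that each drew most of their cells from 1 age, so their age ratios compare largely different clusters. For valve endocardial-like cells, 1 cluster had 365 cells of the 72 hpf library and 11 of the 48 hpf library, and the other held 1 from 72 hpf and 548 from 48 hpf. The G2/M-like and lymphatic endothelial-like groups were each joined from a pair of such clusters. One of the lymphatic endothelial-like clusters was more mixed, with 115 cells at 72 hpf and 28 at 48 hpf. Groups that matched no marker list, or matched only a list with no cell type name, are called by their leading genes, and "-like" marks a name given by markers.

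Together the 10 genes made up 0.723% of all UMIs at 72 hpf and 0.534% at 48 hpf. The median cell carried 62.8 UMIs of these genes per 10000 of its UMIs at 72 hpf (quartiles 34.7 and 113) and 42.5 at 48 hpf (quartiles 24.9 and 69.4). Cells without a single UMI of any of them numbered 32 at 72 hpf and 5 at 48 hpf. Transcripts of these genes were thus found in nearly every sorted cell of both libraries.

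The Fos genes encode the partners of Jun proteins in AP-1. *fosab* (ENSDARG00000031683), the zebrafish counterpart of *FOS*, stood at 2053 CPM at 72 hpf (2037 to 2068) and 908 CPM at 48 hpf (897 to 918), a ratio of 2.26. Its level at 72 hpf ranged from 4526 CPM in lymphatic endothelial-like cells to 647 CPM in valve endocardial-like cells among the groups that were not blood. The same groups were the extremes at 48 hpf, with 1982 CPM in lymphatic endothelial-like and 344 CPM in valve endocardial-like cells. *fosb* (ENSDARG00000055751) stood at 329 CPM at 72 hpf (323 to 335) and 145 CPM at 48 hpf (140 to 149). Lymphatic endothelial-like cells had the highest *fosb* level at 72 hpf, 825 CPM, while at 48 hpf it was highest in the *cxcr4b*/*efemp2b* cells, at 298 CPM. For both Fos genes the highest group lay apart from the next in its counting interval at both ages.

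The Jun genes encode the other partners in AP-1, and *junba* and *junbb* are a pair of zebrafish counterparts of mammalian *JUNB*. *junba* (ENSDARG00000074378) reached 1948 CPM at 72 hpf (1933 to 1963) and 1577 CPM at 48 hpf (1563 to 1592). It was the most evenly spread of the 10 genes at 48 hpf, where its highest group, the *dcn*/*dnase1l4.1* cells, was 1.51 times the lowest, the valve endocardial-like cells. At 72 hpf its level was 3023 CPM in ventricular endocardial-like and 2965 CPM in valve interstitial-like cells, with overlapping intervals, and 1326 CPM in the *cxcr4b*/*efemp2b* cells. *junbb* (ENSDARG00000104773) stood at 1112 CPM at 72 hpf (1101 to 1123) and 804 CPM at 48 hpf (794 to 814). Its highest groups at 72 hpf, the *cfd*/*emid1* cells at 2205 CPM and the lymphatic endothelial-like cells at 2140 CPM, overlapped in their intervals, and valve endocardial-like cells had 467 CPM. How reads shared by related gene pairs were counted is not given in the sources used here, so a split between *junba* and *junbb*, or between the *ier2* genes, is uncertain to that extent.

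*jund* (ENSDARG00000067850), the Jun gene known in mammals for steady rather than induced expression, had 214 CPM at 72 hpf (209 to 219) and 131 CPM at 48 hpf (127 to 135). At 72 hpf its highest groups were the lymphatic endothelial-like, *cfd*/*emid1* and *aqp8a.1*/*glulb* cells, in the same order as for *fosb*. For *jund* the interval of each of these groups overlapped that of the next, at 412, 383 and 341 CPM. The place of the valve endocardial-like cells was unlike that for most of the genes. Valve endocardial-like cells, lowest or near lowest for most of the genes, had 276 CPM of *jund* at 72 hpf and 148 CPM at 48 hpf. The lowest levels outside blood were 139 CPM in the *cxcr4b*/*efemp2b* cells at 72 hpf and 107 CPM in the *rhag*/*esm1* cells at 48 hpf.

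*egr1* (ENSDARG00000037421) differed most between the ages. Its level was 304 CPM at 72 hpf (298 to 310) and 52.4 CPM at 48 hpf (49.9 to 55), and it was found in 63.5% of cells at 72 hpf and 24.2% at 48 hpf before depth was equalised. With every cell thinned to 2000 UMIs it was found in 39.2% of cells at 72 hpf and 7.47% at 48 hpf, and in 4.37% of the erythroid-like cells at 72 hpf. Valve interstitial-like cells, the mesenchymal cells of the forming valve, had 534 CPM at 72 hpf and ventricular endocardial-like cells had 512 CPM, with overlapping intervals. Valve endocardial-like cells, which line the same valve, had 119 CPM. At 48 hpf the *cxcr4b*/*efemp2b* cells were highest, at 102 CPM, against 24.2 CPM in valve endocardial-like cells.

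The *ier2* genes encode small nuclear proteins that are quickly induced by growth factors. *ier2a* (ENSDARG00000099195) had 112 CPM at 72 hpf (109 to 116) and 96.9 CPM at 48 hpf (93.5 to 100.5), the smallest age difference of the 10 over all cells. Without blood cells that of *socs3a* was smaller, at a ratio of 0.778, against 1.40 for *ier2a*. Of the 10 genes *ier2a* had the largest ratio of lymphatic endothelial-like cells over other cells outside blood at both ages. Its level in them was 393 CPM at 72 hpf and 274 CPM at 48 hpf. The next groups stood at 181 CPM, in the *aqp8a.1*/*glulb* cells at 72 hpf, and at 149 CPM, in the *cxcr4b*/*efemp2b* cells at 48 hpf, both outside the counting intervals of the highest. *ier2b* (ENSDARG00000086881) had 449 CPM at 72 hpf (442 to 457) and 224 CPM at 48 hpf (218 to 229). It was highest in the *cfd*/*emid1* cells at 72 hpf, at 861 CPM, and in the *dcn*/*dnase1l4.1* cells at 48 hpf, at 351 CPM.

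*atf3* (ENSDARG00000007823) and *socs3a* (ENSDARG00000025428) were the 2 genes with a lower level at the later age. *atf3* had 434 CPM at 72 hpf (427 to 441) and 949 CPM at 48 hpf (938 to 960). Lymphatic endothelial-like cells led at both ages, with 1245 CPM at 72 hpf and 1814 CPM at 48 hpf. At 72 hpf the lowest *atf3* level outside blood, 380 CPM, was that of the ventricular endocardial-like cells, which were among the highest groups for *fosab*, *junba* and *egr1*. *socs3a* had 279 CPM at 72 hpf (274 to 285) and 449 CPM at 48 hpf (442 to 457). Its highest levels were in lymphatic endothelial-like cells at 72 hpf (590 CPM) and in the *dcn*/*dnase1l4.1* cells at 48 hpf (662 CPM). At 72 hpf the interval of the next group, the *aqp8a.1*/*glulb* cells at 524 CPM, overlapped that of the highest.

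**Figure D1:**
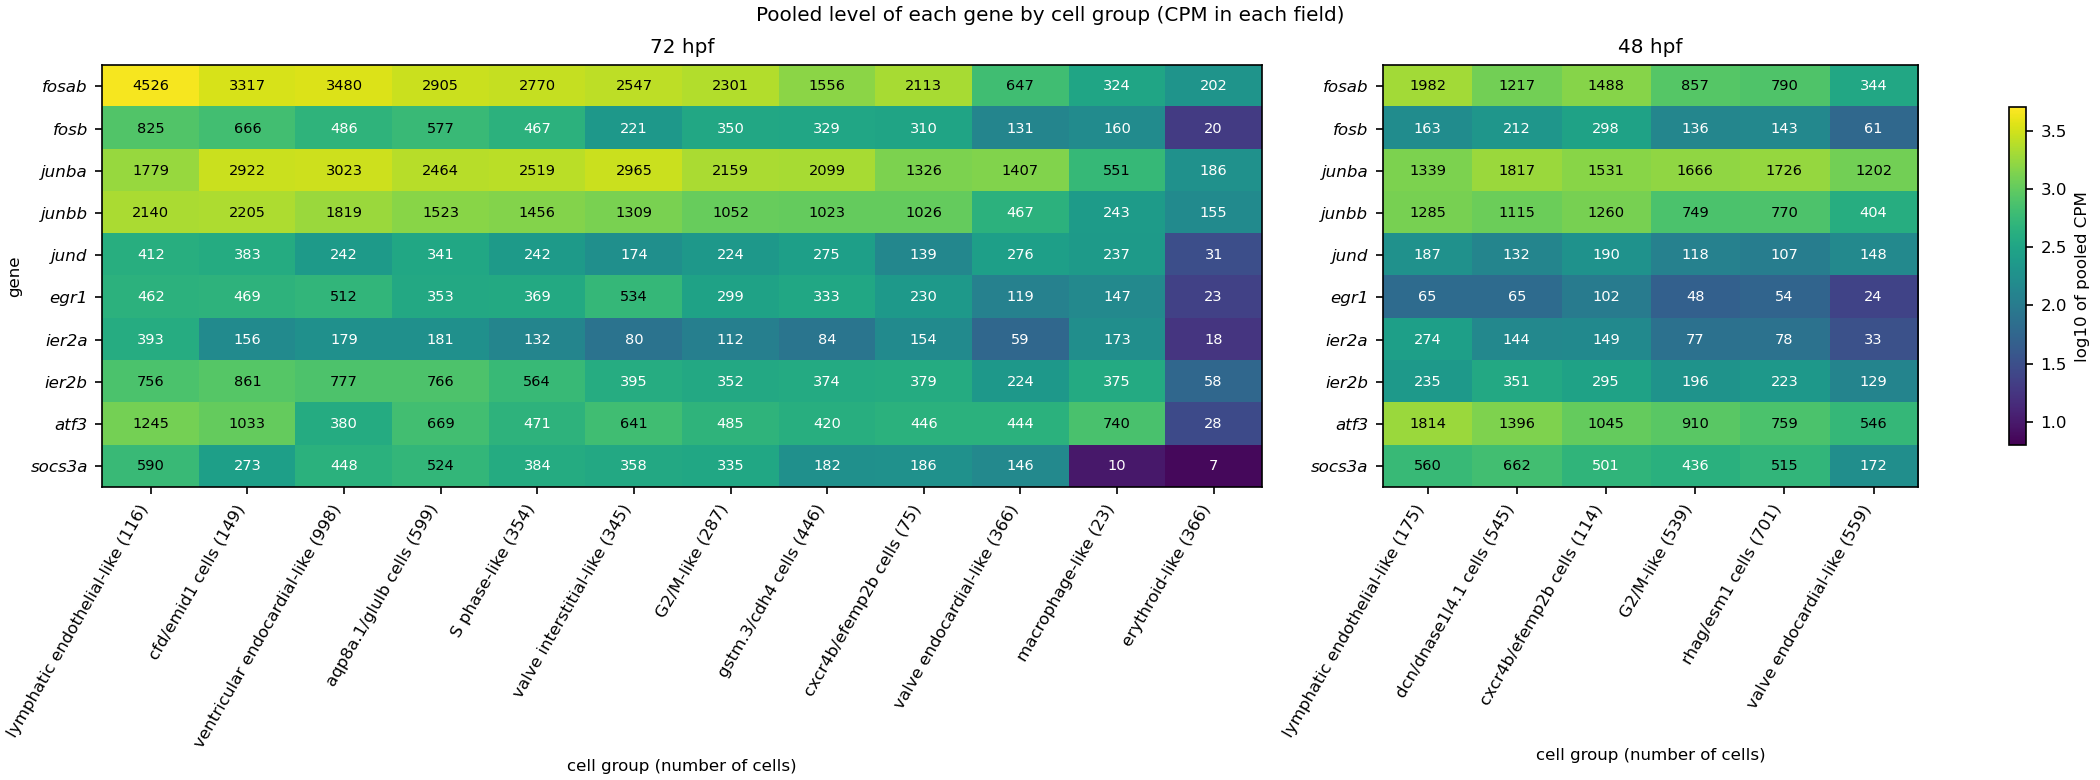
Pooled CPM of each of the 10 genes (rows) in each cell group (columns, with the number of cells) at 72 hpf (left) and 48 hpf (right). Colour is log10 of CPM, and groups run from the highest to the lowest summed level. Lymphatic endothelial-like cells lead at both ages, with *fosab* at 4526 CPM at 72 hpf and 1982 CPM at 48 hpf, and erythroid-like cells have the lowest *fosab* level at 72 hpf.

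The question of age was addressed first over all cells and then within the groups found at both ages. Among all cells, 4 of the 10 genes (*fosab*, *fosb*, *egr1* and *ier2b*) were at least 2-fold higher at 72 hpf than at 48 hpf, a size reached by 11.6% of the 7069 genes at 10 CPM or more in either library. *atf3* was at least 2-fold lower, as were 4.71% of those genes. The median log2 ratio of the 10 genes was 0.59 and that of all genes was 0.09. *egr1* had the largest ratio, 5.81 (5.51 to 6.13), while *ier2b* lay at the limit with 2.01 (1.95 to 2.07). Those below the limit were *jund* at 1.64 (1.57 to 1.70), *junbb* at 1.38 (1.36 to 1.41), *junba* at 1.23 (1.22 to 1.25), *ier2a* at 1.16 (1.1 to 1.22) and *socs3a* at 0.622 (0.606 to 0.639). *atf3* stood at 0.457 (0.448 to 0.466).

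The libraries differed in their blood cells, which carried little RNA of these genes. Without them, 3736 cells at 72 hpf and 2650 at 48 hpf, the ratios were 7.16 for *egr1*, 2.82 for *fosb*, 2.79 for *fosab* and 2.45 for *ier2b*. *atf3* then stood at 0.560, so that none of the 10 was 2-fold lower (3.62% of all genes were), while 4 were 2-fold higher (10.6% of all genes).

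The directions of *egr1* and *atf3* were the same in the 4 groups found at both ages, 3 of which compare largely separate clusters of 1 name. The *egr1* ratio of 72 over 48 hpf was 7.16 (5.82 to 8.84) in lymphatic endothelial-like cells and 6.19 (5.50 to 6.98) in G2/M-like cells. It was 4.91 (4.02 to 6.03) in valve endocardial-like cells and 2.26 (1.81 to 2.84) in the *cxcr4b*/*efemp2b* cells. The *atf3* ratio was below 1 in all 4 groups, from 0.427 in the *cxcr4b*/*efemp2b* cells to 0.813 in valve endocardial-like cells. *egr1* was thus higher and *atf3* lower at 72 hpf in each of these groups.

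The number of the 10 genes at least 2-fold higher at 72 hpf was 5 in lymphatic endothelial-like cells (19.5% of all genes), 3 in G2/M-like cells (9.97%), 2 in valve endocardial-like cells (13.2%) and 1 in the *cxcr4b*/*efemp2b* cells (21.1%). Genes at least 2-fold lower were found in the *cxcr4b*/*efemp2b* cells alone, where they were *atf3* and *socs3a* (11.3% of all genes). In lymphatic endothelial-like cells *fosb* stood out with a ratio of 5.06 (4.41 to 5.81), against 2.57 in G2/M-like and 2.16 in valve endocardial-like cells. *ier2b* likewise reached 3.22 (2.84 to 3.66) there. The median log2 ratio of the 10 genes was 0.94 in lymphatic endothelial-like, 0.70 in G2/M-like and 0.81 in valve endocardial-like cells. The medians of all genes were 0.12, 0.08 and 0.10 in the same order. The *cxcr4b*/*efemp2b* cells, 75 at 72 hpf and 114 at 48 hpf, went apart from the other groups, with *junba*, *junbb* and *jund* lower at 72 hpf. In these cells the median log2 ratio was −0.08 over the 10 genes, against 0.25 over all genes. Their own leading genes also differed with age, as *efemp2b* was found in 29.3% of these cells at 72 hpf and 50.9% at 48 hpf at equal depth, so the same cells may not have been compared.

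**Figure D2:**
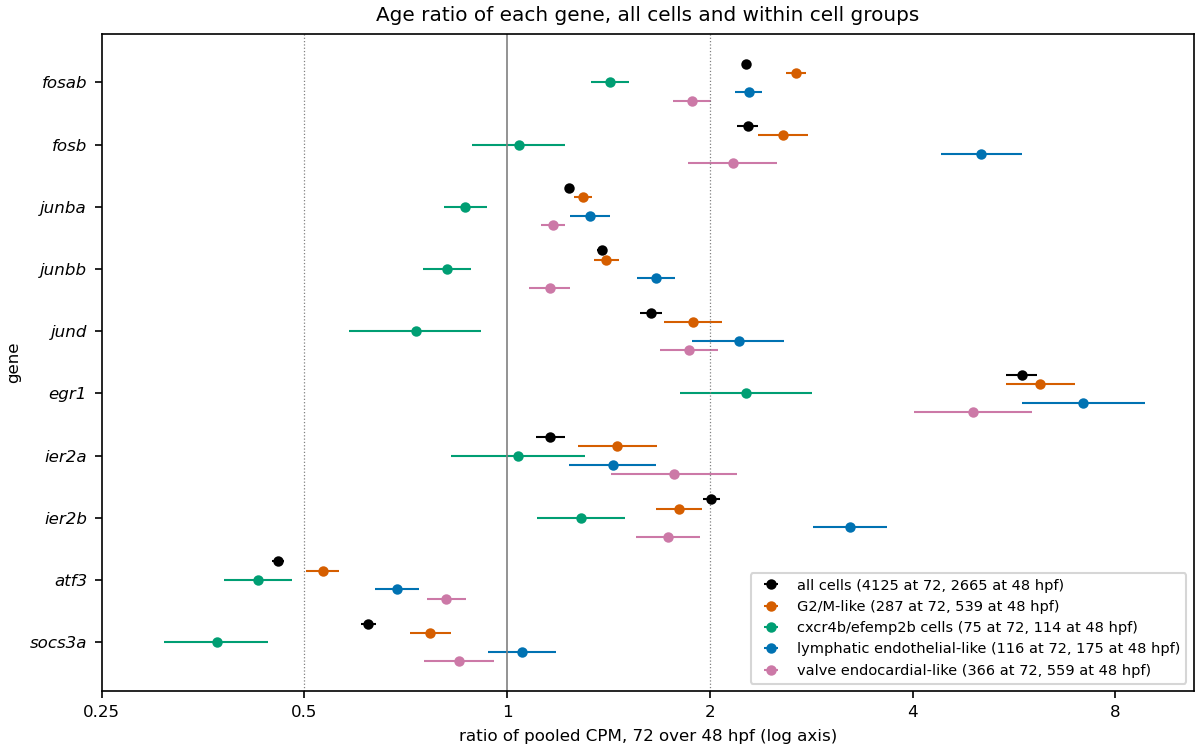
Ratio of pooled CPM at 72 hpf over 48 hpf on a log axis for each gene, over all cells (black) and within the 4 cell groups found at both ages. Bars are 95% counting intervals of single libraries, the solid line marks no difference and the dotted lines mark 2-fold. *egr1* lies right of the 2-fold line in all cells and in each group, and *atf3* lies left of 1 throughout.

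Cell groups were compared next. Valve endocardial-like cells, the endothelial lining of the cushions that form the valves, had the lowest summed level of these genes of any group outside blood at both ages. At 72 hpf their median cell carried 33.0 UMIs of the 10 genes per 10000 (quartiles 20.8 and 51.9), against 81.6 (46.2 and 155) in ventricular endocardial-like cells. At 48 hpf the median was 24.2 in valve endocardial-like cells and 43.2 in the *rhag*/*esm1* cells.

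Set against the other cells that were not blood, 7 of the 10 genes were at least 2-fold lower in valve endocardial-like cells at 72 hpf, where 11.9% of all genes were. At 48 hpf 6 of the 10 were, against 9.32% of all genes. None was 2-fold higher, as 8.07% of all genes at 72 hpf and 5.23% at 48 hpf were. *fosab* stood at 0.234 (0.223 to 0.245) of the level of the other cells at 72 hpf and at 0.325 (0.311 to 0.340) at 48 hpf. The exceptions included *jund*, at 1.06 (0.979 to 1.14) at 72 hpf and 1.15 (1.07 to 1.24) at 48 hpf, and *junba*, at 0.554 at 72 hpf and 0.711 at 48 hpf. *atf3* was at 0.812 at 72 hpf and 0.516 at 48 hpf. Against ventricular endocardial-like cells alone, 8 genes were at least 2-fold lower (9.8% of all genes), and *jund* and *atf3* stood at 1.14 (1.04 to 1.25) and 1.17 (1.09 to 1.26). The median depth was similar in valve endocardial-like cells (6240 UMIs) and ventricular endocardial-like cells (5144 UMIs) at 72 hpf.

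Lists of related genes are described here by their counts and medians in valve endocardial-like cells, set against the other cells that were not blood. Of all genes 11.9% were 2-fold lower and 8.07% higher at 72 hpf. At 48 hpf 9.32% were lower and 5.23% higher. Of 18 heat shock genes, none was 2-fold lower at either age and 3 were 2-fold higher at 72 hpf, and their median log2 ratio to the other cells was 0.26 at 72 hpf and 0.41 at 48 hpf. For the 10 immediate early genes it was −1.38 at 72 hpf and −1.24 at 48 hpf, while the median of all genes was 0.0043 at 72 hpf and 0.025 at 48 hpf. Of 14 endoplasmic reticulum stress genes 1 was 2-fold lower at each age, no more than the share over all genes, with medians of −0.18 at 72 hpf and 0.03 at 48 hpf. Feedback and mRNA decay genes had 10 of 25 at least 2-fold lower at 72 hpf (median −0.48) and 8 of 24 at 48 hpf (median −0.59). Other AP-1, Egr and nuclear receptor early genes had 5 of 16 lower and 2 higher at 72 hpf (median −0.74), and 1 of 13 lower and 3 higher at 48 hpf (median −0.05). Growth and other early genes had 7 of 17 lower and 2 higher at 72 hpf (median −0.74), and 4 of 15 lower and 1 higher at 48 hpf (median −0.62).

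At the other end were the lymphatic endothelial-like cells, named by markers such as *lyve1b*. *lyve1a*, a leading gene of the cluster that held most of them at 72 hpf, was not found in the 48 hpf library. Next after the lymphatic endothelial-like cells at 72 hpf came the *cfd*/*emid1* cells, with a median of 104 UMIs of the 10 genes per 10000 (quartiles 62.4 and 180). The median lymphatic endothelial-like cell carried 116 (72.4 and 176) at 72 hpf and 70.8 (46.4 and 105) at 48 hpf. At least 2-fold above the other cells that were not blood were *ier2a* (3.03), *atf3* (2.40) and *fosb* (2.06) at 72 hpf, where 13.4% of all genes were. At 48 hpf they were *ier2a* (3.23), *fosab* (2.35) and *atf3* (2.02), against 8.63% of all genes. None was 2-fold lower, while 15.5% of all genes at 72 hpf and 8.13% at 48 hpf were. *junba* was the one gene below the other cells at both ages, at 0.728 (0.687 to 0.771) at 72 hpf and 0.830 (0.798 to 0.863) at 48 hpf. Of the heat shock genes 5 of 18 were 2-fold lower in these cells at 72 hpf (median log2 ratio −0.50) and 3 of 17 at 48 hpf (median −0.30). Endoplasmic reticulum stress genes had medians of −0.32 at 72 hpf and −0.17 at 48 hpf, with none of 14 genes 2-fold lower at either age and 1 higher at 48 hpf. Other AP-1, Egr and nuclear receptor early genes had 1 of 16 higher and 4 lower at 72 hpf (median 0.0055). At 48 hpf 3 of 13 were higher and 4 lower (median −0.21). Growth and other early genes had 4 of 17 higher and 4 lower at 72 hpf (median −0.015). At 48 hpf 2 of 16 were higher and 3 lower (median 0.0037). Feedback and mRNA decay genes had 8 of 27 higher and 1 lower at 72 hpf (median 0.26). At 48 hpf 10 of 28 were higher and 3 lower (median 0.66).

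Ventricular endocardial-like cells had 8 of the 10 genes above the other cells at 72 hpf, with *ier2b* at 1.58 and *fosab* at 1.51. None of the 10 reached 2-fold (2.5% of all genes did), and none was 2-fold lower (11.4% of all genes were). The median log2 ratio of the 10 genes was 0.48 in these cells, and that of all genes was −0.19. *atf3* was at 0.656 and *jund* at 0.907. In valve interstitial-like cells *egr1* was at 1.47 (1.39 to 1.56) and *junba* at 1.25, whereas *fosb* was at 0.510 and *ier2a* at 0.559, and again none reached 2-fold in either direction (10.9% of all genes were higher and 8.54% lower). Dividing G2/M-like cells had all 10 genes below the other cells at 72 hpf, from 0.609 for *ier2b* to 0.941 for *socs3a*, and 9 of 10 at 48 hpf. The median of all genes was also below the other cells, with a log2 ratio of −0.07 at 72 hpf and −0.03 at 48 hpf. That of the 10 genes was −0.26 at 72 hpf and −0.15 at 48 hpf. The share of all genes below the other cells was not counted. None of the 10 was 2-fold lower, as 6.56% of all genes at 72 hpf and 1.06% at 48 hpf were. Nor was any 2-fold higher, as 8.63% at 72 hpf and 6.27% at 48 hpf were.

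Blood cells had the lowest summed levels. The 366 erythroid-like cells at 72 hpf, whose leading genes also held thrombocyte and progenitor markers, had all 10 genes at least 2-fold below the cells that were not blood, where 34.8% of all genes were. Their levels ran from 2.07% of that of the other cells for *socs3a* (1.54 to 2.73) to 12.9% for *ier2a* (10.6 to 15.4). At equal depth *fosab* was found in 28.1% of erythroid-like cells and 82.4% of cells that were not blood, while unthinned medians were 18758 UMIs in erythroid-like cells and 6106 UMIs in the others. Of the 12 endothelial markers, *kdrl* stood at 1.48% of the level of the other cells and *clec14a* at 3.75%. Between them lay *cdh5*, *pecam1*, *tie1* and *egfl7*, and the rest of the list was not compared gene by gene. All 12 together summed to 176 CPM in erythroid-like cells and 4580 CPM in the cells that were not blood. The part of free RNA in the low signal of the 10 genes was not tested. The 23 macrophage-like cells had 6 of the genes at least 2-fold lower (33.1% of all genes), but *atf3* was at 1.38 (1.21 to 1.57) and *ier2a* at 1.27 (0.95 to 1.66). *socs3a* was at 0.0271 in these cells, a value that rests on 3 UMIs (9.61 CPM, interval 1.98 to 28.1).

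**Figure D3:**
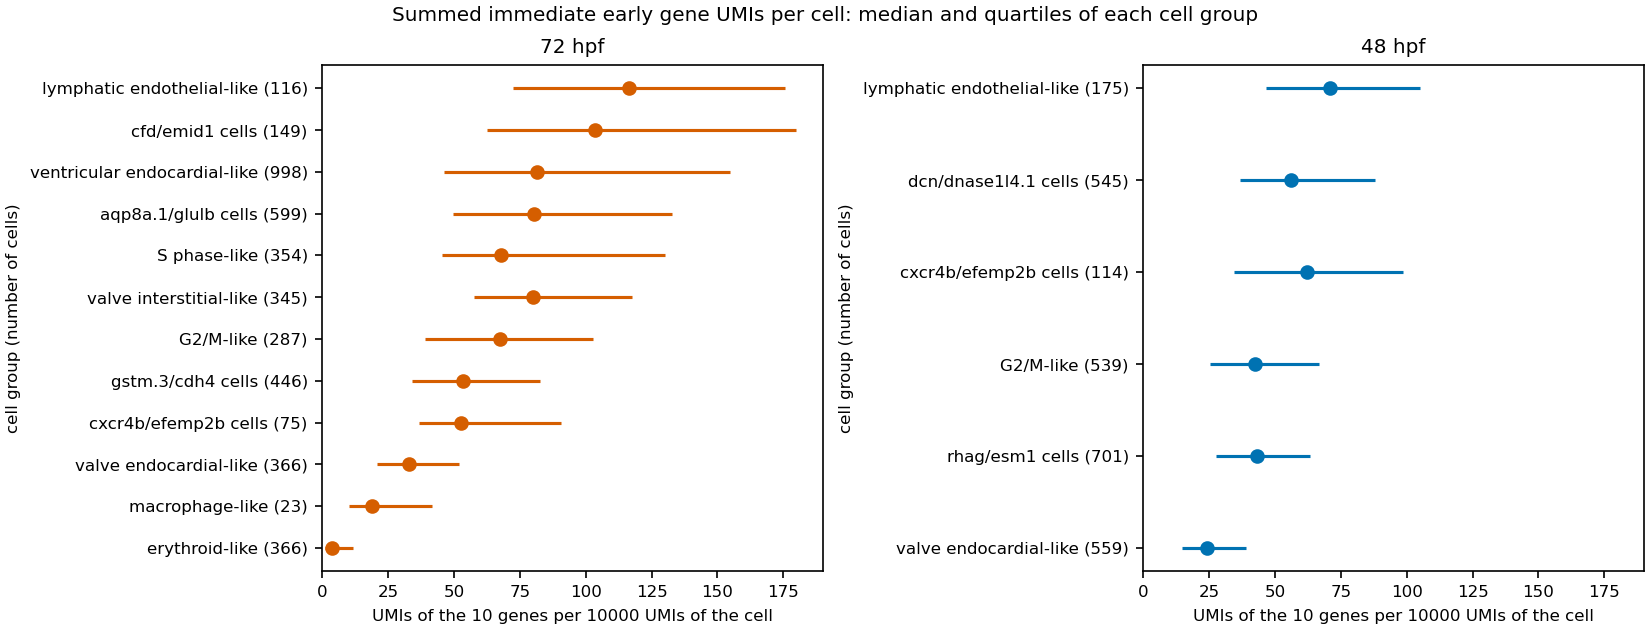
Summed UMIs of the 10 genes per 10000 UMIs of each cell, at 72 hpf (left) and 48 hpf (right). Points are medians over the cells of a group and bars run between the quartiles. The median of lymphatic endothelial-like cells is 116 at 72 hpf and 70.8 at 48 hpf, and that of valve endocardial-like cells is 33.0 at 72 hpf and 24.2 at 48 hpf.

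Whether the genes occurred in the same cells was read after thinning every cell to 2000 UMIs at random, since deeper cells show more genes. At this depth at least 5 of the 10 genes were found in 61.6% of cells at 72 hpf (60.1 to 63.1) and 39.4% at 48 hpf (37.5 to 41.3). Without thinning the shares were 88.5% at 72 hpf and 90.1% at 48 hpf. All 10 were found together in 55 thinned cells at 72 hpf and 8 at 48 hpf, and none of them in 191 thinned cells at 72 hpf and 53 at 48 hpf. Of the 191 cells without any at 72 hpf, many were erythroid-like, since 44.8% of the 366 erythroid-like cells had none.

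By group, at least 5 of the genes were found in 92.2% of lymphatic endothelial-like cells at 72 hpf (85.8 to 96.4) and 62.9% at 48 hpf (55.2 to 70.0). In valve endocardial-like cells the shares were 36.9% at 72 hpf (31.9 to 42.1) and 17.5% at 48 hpf (14.5 to 20.9). G2/M-like cells had 64.5% at 72 hpf and 39.3% at 48 hpf, and the *cxcr4b*/*efemp2b* cells had 52.0% at 72 hpf (40.2 to 63.7) and 60.5% at 48 hpf (50.9 to 69.6), with overlapping intervals. Erythroid-like cells had 4.92%. At equal depth the 3 groups joined from clusters mostly of 1 age thus had higher shares at 72 hpf. The *cxcr4b*/*efemp2b* cells, a single cluster with 75 cells at 72 hpf and 114 at 48 hpf, did not.

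**Figure D4:**
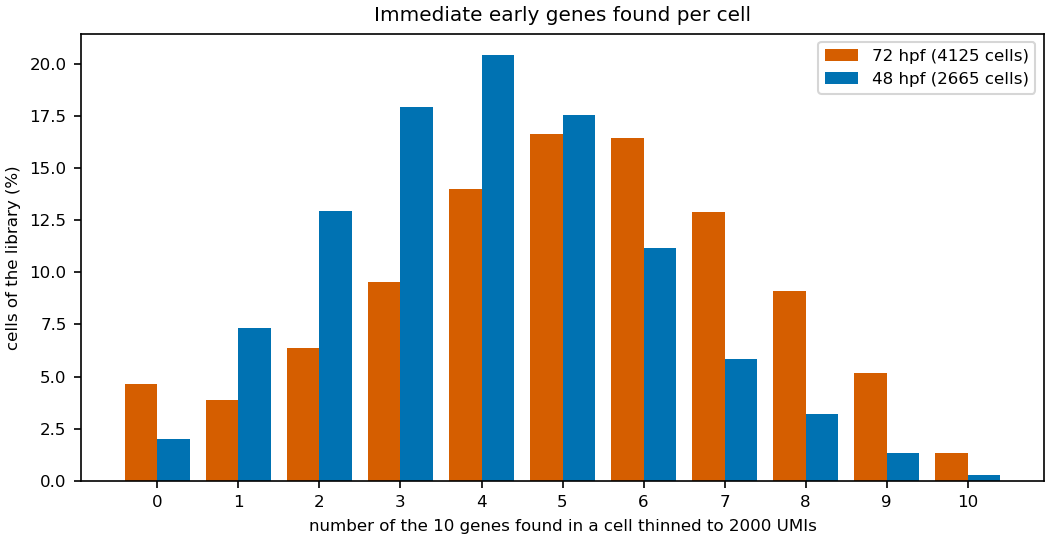
Share of cells (in percent) by how many of the 10 genes were found after each cell was thinned to 2000 UMIs, at 72 hpf (left bar of each pair) and 48 hpf (right bar). At 72 hpf 61.6% of cells lie at 5 genes or more, against 39.4% at 48 hpf, and 4.63% of cells at 72 hpf have none.

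Co-detection of each pair in the same thinned cell was measured within clusters, as a Mantel-Haenszel odds ratio, so that differences between clusters did not enter it. The median over the 45 pairs was 1.92 at 72 hpf (lowest 1.195, highest 3.29) and 1.92 at 48 hpf (lowest 0.980, highest 4.04). An odds ratio of 2 or more was reached by 19 of 45 pairs at 72 hpf and 18 at 48 hpf, against 0.351% at 72 hpf and 0.506% at 48 hpf of all pairs among 3101 genes. The median of all those pairs was 1.01 at 72 hpf and 1.00 at 48 hpf. The pairs share genes and are not independent of each other.

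The strongest pair was *fosab* with *egr1* at 72 hpf (3.29) and *egr1* with *ier2a* at 48 hpf (4.04). *fosab* had the highest median over its 9 partners at 72 hpf, 2.78, and *egr1* at 48 hpf, 2.90. *jund* was the least linked at both ages, with a median of 1.28 at 72 hpf and 1.11 at 48 hpf, followed by *atf3* with 1.46 at 72 hpf and 1.41 at 48 hpf. Both were linked more loosely to the other genes at each age than *fosab*, the *junb* genes, *egr1* or the *ier2* genes were.

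**Figure D5:**
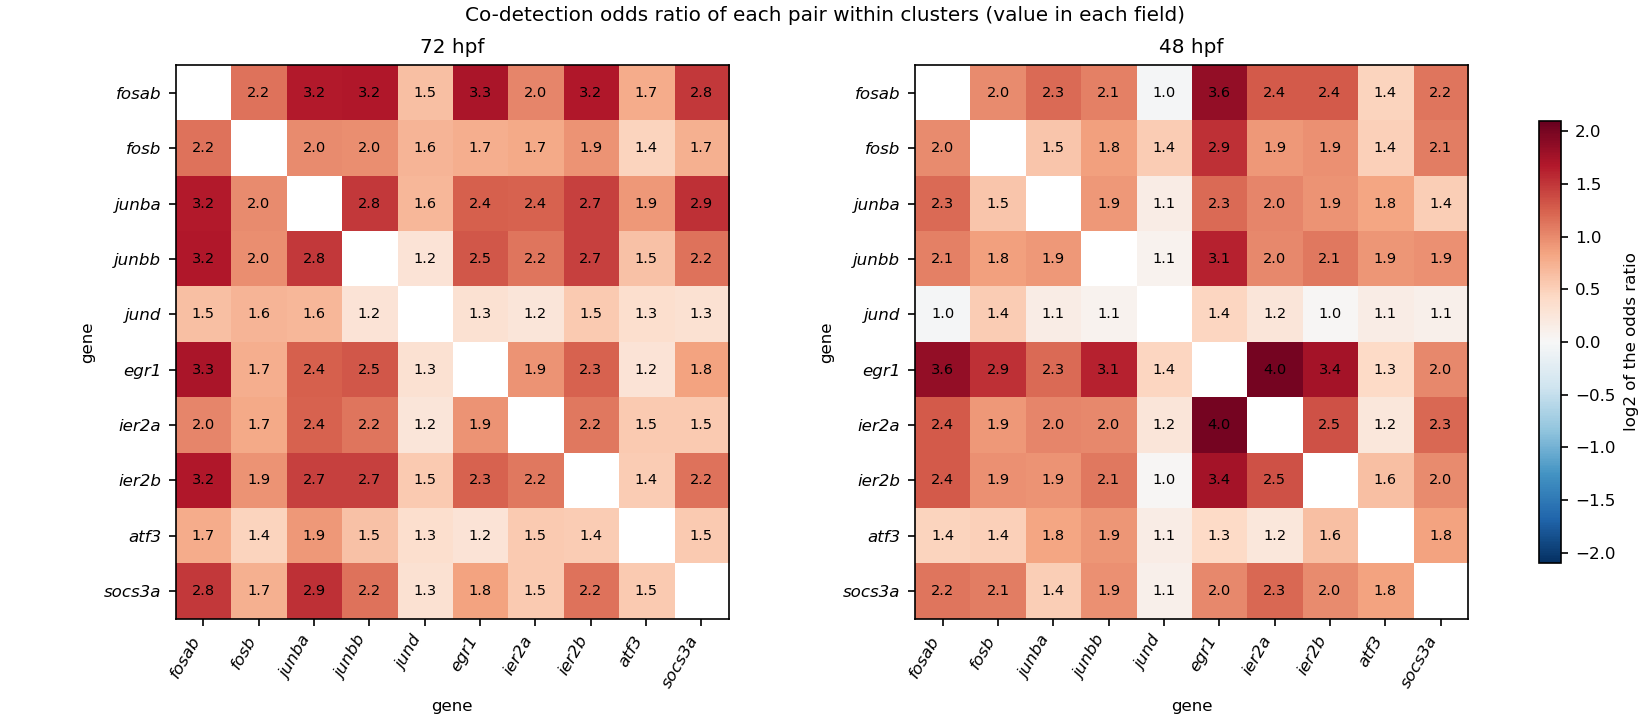
Odds ratio of finding 2 genes in the same cell for each of the 45 pairs, within clusters and at 2000 UMIs per cell, at 72 hpf (left) and 48 hpf (right). Colour is log2 of the odds ratio, which is printed in each field. *jund* forms the palest row in both panels, and the highest values are 3.29 at 72 hpf (*fosab* with *egr1*) and 4.04 at 48 hpf (*egr1* with *ier2a*).

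The level of each gene in single cells was also set against the sum of the others, as a Pearson correlation of log counts over the thinned cells with cluster means removed (4125 cells at 72 hpf and 2665 at 48 hpf, each from 1 library). It was highest for *fosab*, 0.65 at 72 hpf and 0.46 at 48 hpf, followed by *junbb* at 0.56 at 72 hpf and 0.43 at 48 hpf. Over both ages these led all 3101 genes found in at least 5% of thinned cells. The value for *egr1* was 0.42 at 72 hpf and 0.30 at 48 hpf, and that for *atf3* was 0.20 at 72 hpf and 0.27 at 48 hpf. *jund* had 0.15 at 72 hpf (rank 47 of the 3101 genes) and 0.04 at 48 hpf (rank 341), both weak values in sparse counts. *ier2a* was sparser, found in 21.4% of thinned cells at 72 hpf against 34.4% for *jund*, and in 15.3% against 21.5% at 48 hpf. Its correlation was nonetheless 0.26 at 72 hpf and 0.29 at 48 hpf. A value of 0.2 or more was reached by 8 of the 10 genes at 72 hpf and 9 at 48 hpf, where 1.06% of all genes reached it at each age. The median over all genes was −0.0039 at 72 hpf and −0.0031 at 48 hpf.

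The 10 other genes most like this sum included *jun*, which encodes a further AP-1 subunit (0.55 at 72 hpf and 0.44 at 48 hpf), and *jdp2b*, a Jun-binding repressor (0.42 at 72 hpf, 0.41 at 48 hpf). They also included the kinase gene *pim1* (0.38 at 72 hpf, 0.39 at 48 hpf), the endothelin gene *edn2* (0.34 at 72 hpf, 0.39 at 48 hpf), the matrix protein gene *ccn1* (0.38 at 72 hpf, 0.35 at 48 hpf) and *mycb* (0.33 at 72 hpf, 0.34 at 48 hpf). The MAP kinase phosphatase genes *dusp2* (0.41 at 72 hpf, 0.23 at 48 hpf) and *dusp6* (0.23 at 72 hpf, 0.32 at 48 hpf), which encode negative regulators of the signal that induces many early genes, completed the set with *zgc:162730* (0.52 at 72 hpf, 0.39 at 48 hpf) and *si:ch73-335l21.4* (0.39 at 72 hpf, 0.42 at 48 hpf).

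As a list, 9 other AP-1, Egr, nuclear receptor and related early genes had a median correlation of 0.22 at 72 hpf and 0.15 at 48 hpf, with *fosl1a* next after *jun* and *jdp2b*. The feedback and mRNA decay genes had medians of 0.15 at 72 hpf and 0.15 at 48 hpf over 20 genes, where *gadd45ba* followed the *dusp* genes. For 12 growth and other early genes the median was 0.14 at both ages.

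Heat shock and endoplasmic reticulum stress genes had median correlations near 0 with the sum. Some heat shock genes lay well below 0, while some genes of both lists were among the 100 highest of the 3101 genes. Over 14 heat shock genes the median correlation was −0.02 at 72 hpf and −0.06 at 48 hpf, and 9 of them at 72 hpf and 12 at 48 hpf were below 0. The highest, the co-chaperone gene *dnajb1b*, had 0.13 at 72 hpf and 0.01 at 48 hpf, and *hsp70.3* had 0.13 at 72 hpf and −0.03 at 48 hpf. Among the 3101 genes *dnajb1b* ranked 49 at 72 hpf and 986 at 48 hpf, and *hsp70.3* ranked 51 at 72 hpf and 2616 at 48 hpf. The lowest was *hsp90aa1.2*, singled out after its value was seen, at −0.14 at 72 hpf and −0.27 at 48 hpf. Over both ages it was the lowest of all 3101 genes. Likewise singled out were *hsp90ab1* (−0.14 at 72 hpf, −0.13 at 48 hpf) and *hspa8* (−0.08 at 72 hpf, −0.17 at 48 hpf). Over 12 endoplasmic reticulum stress genes the median was 0.03 at 72 hpf and 0.0070 at 48 hpf, with *ddit3*, *trib3* and *xbp1* highest. Of these 12 genes, 1 at 72 hpf and 3 at 48 hpf were among the 100 highest of the 3101. Heat shock RNA was nevertheless abundant, since *hsp70.3* stood at 7725 CPM at 72 hpf and 9444 CPM at 48 hpf and was found in 97.8% of thinned cells at 72 hpf and 97.3% at 48 hpf. The *hsp70* genes have near-identical copies, so their separate counts are uncertain.

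Between the ages, 7 of 17 other AP-1, Egr and nuclear receptor early genes were at least 2-fold higher at 72 hpf and none lower (median log2 ratio 0.69), where 11.6% of all genes were higher and 4.71% lower. The largest ratios were those of *nab1a*, a partner of Egr factors, at 8.78, *csrnp1b* at 5.87 and *egr2a* at 5.37. Growth and other early genes had 6 of 17 higher and none lower (median 0.69). They were led by the growth factor gene *hbegfb* at 9.68, *ccn2b* at 5.56 and *ccn1* at 3.68. Here *hbegfb* (14.8 CPM against 1.53 at 48 hpf) and *ccn2b* (20.8 against 3.74) reached 10 CPM at 72 hpf alone. Feedback and mRNA decay genes had 3 of 26 higher and 2 lower (median 0.31), with *dusp2* at 3.15, *zfp36l1a* at 2.55 and *ppp1r15a* at 2.39. Of these, *zfp36l1a* (18.7 CPM against 7.35 at 48 hpf) and *ppp1r15a* (10.2 against 4.26) reached 10 CPM at 72 hpf alone. The count of higher feedback and mRNA decay genes is about the share over all genes. Without blood cells 6 of these 26 genes were higher and none lower (median 0.57), against 10.6% and 3.62% of all genes. In the *cxcr4b*/*efemp2b* cells 2 of 27 were higher and 7 lower (median −0.54), against 21.1% and 11.3% of all genes. Of the other AP-1, Egr and nuclear receptor early genes 2 of 15 were higher in these cells and 1 lower (median −0.06). Growth and other early genes had none of 16 higher and 7 lower there (median −0.42).

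Heat shock genes had 2 of 18 at least 2-fold higher at 72 hpf, the small chaperone gene *hspb1* at 13.9 (12.8 to 15) and *hsph1* at 2.50. There was 1 lower, *hspb8* at 0.499 (median 0.34), and both counts were again close to the shares over all genes. *hsph1* reached 10 CPM at 72 hpf alone (16.5 CPM against 6.57 at 48 hpf). None of 14 endoplasmic reticulum stress genes reached 2-fold (median 0.08), and their largest ratios were those of *ddit3* (1.69), *hsp90b1* (1.59) and *hspa5* (1.38). The median of all genes was 0.09, above that of the endoplasmic reticulum stress list and below those of the other lists.

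Depth and RNA quality were set beside the summed level of the 10 genes in single cells. Within clusters its correlation with log UMIs was −0.14 at 72 hpf and −0.07 at 48 hpf, and with the mitochondrial share 0.02 at 72 hpf and 0.05 at 48 hpf. Across all cells the correlation with log UMIs was −0.42 at 72 hpf, where the deep erythroid-like cells carried few of these transcripts, and −0.09 at 48 hpf. How much of the RNA of these genes was made during the 20 minutes of enzyme treatment, during the sort or before was not tested. Both ages are described as dissociated alike, and any unequal handling of the 2 preparations cannot be told apart from age.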

How the data were processed

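Hearts from Tg(kdrl:nls-mCherry); Tg(cd41:GFP) zebrafish at 72 and 48 hpf gave 1 library each. Unnormalized UMI counts for 4125 and 2665 cells were deposited by the authors. Submitters' processing notes name STARsolo, Scanpy and danRer11, with no version. The counting of reads shared by genes is not given in the sources used here.

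Per-cell counts were scaled to 10000 and log-transformed in scanpy 1.11.5. Clusters came from 2000 variable genes without any of the 142 listed genes, 30 components, 15 neighbours (scikit-learn 1.9.0) and leidenalg 0.10.2 at resolution 0.6 (Python 3.11.15, numpy 2.4.6, scipy 1.17.1, pandas 2.3.3, matplotlib 3.10.9). Each cluster was named from whichever list of markers was best represented in its 50 leading genes, provided that 3 or more of them stood at a log2 ratio of 1.5 or more. A cluster kept its leading genes as a name where the best list had no cell type name, or where another list led its 10 leading genes. Erythroid-like, macrophage-like and neutrophil-like cells are the blood cells. Groups of fewer than 20 cells in a library (1 cell at 72 hpf, 32 at 48 hpf) were not described. All cells were kept, doublets included.

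CPM was pooled over cells, with exact Poisson intervals. Ratios have exact conditional intervals, and shares have Clopper-Pearson 95% intervals. A gene counted as higher or lower at 2-fold or more, among genes at 10 CPM or more in either group. PCR and sampling of animals add error that these intervals do not cover. Cells were thinned to 2000 UMIs, which every cell reached (lowest 2751), without replacement. Correlations and odds ratios used genes found in at least 5% of thinned cells of both libraries. The code was tested on simulated counts.

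The 10 genes, gene lists and marker lists were chosen with earlier results of these data known. Named genes are the 10, the 3 of each list with the largest age ratio and the 3 with the highest correlation, and the 10 others with the highest mean correlation. Markers of a cell type or group are named besides. Of 142 listed genes, 135 were found. All 10 identifiers matched the gene name table, 3 with the same symbol and the others with a symbol in capitals. Alternatives were thinning depth, UMIs for a positive cell, scaling, fold limit, CPM filter, clustering and leaving out blood or the deepest cells.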

Additional observations from a re-analysis of the deposited data

Results flagged for a closer look

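The age ratio (72 over 48 hpf, pooled CPM) of 3 Jun genes pointed one way in the *cxcr4b*/*efemp2b* cells and the other way in the other groups found at both ages, and the difference was not tested. The *cxcr4b*/*efemp2b* cells of both ages lie in 1 cluster, while the other 3 groups compare largely separate clusters of the same name. For *junba* it was 0.866 in the *cxcr4b*/*efemp2b* cells, against 1.296 in G2/M-like, 1.33 in lymphatic endothelial-like and 1.17 in valve endocardial-like cells. *junbb* had 0.814 in the *cxcr4b*/*efemp2b* cells, against 1.40 in G2/M-like, 1.66 in lymphatic endothelial-like and 1.16 in valve endocardial-like cells. For *jund* the values were 0.732 in the *cxcr4b*/*efemp2b* cells, against 1.89 in G2/M-like, 2.21 in lymphatic endothelial-like and 1.86 in valve endocardial-like cells.

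The *cxcr4b*/*efemp2b* group is small, with 75 cells at 72 hpf and 114 at 48 hpf. At equal depth *lhx8a*, a gene looked at after its values were seen, was found in 48.0% of these cells at 72 hpf and 1.75% at 48 hpf, so the make-up of the group differed between the ages. The part of this, or of the largely separate clusters in the other groups, in the ratios was not tested.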

How the results depend on the processing

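The count of genes at least 2-fold lower at 72 hpf was 1 (*atf3*). It was 0 without blood cells, with the mean over cells, with cells thinned to 2000 UMIs, with totals without mitochondrial, globin and ribosomal protein genes, and without the 5% deepest cells, and it was 2 at 1.5-fold, where 13.1% of all genes were lower. *atf3* stayed lower in the first 5 of these, between −0.99 and −0.84 on the log2 scale. The count of higher genes was 4, or 5 at 1.5-fold, where 23.2% of all genes were higher. With the reduced totals it was 4, where 17.0% of all genes were higher. Without the CPM filter 4 of the 10 genes were higher and 1 lower, where 29.8% of all genes were higher and 13.3% lower. The direction of all 10 genes held in 50 of 50 values from 5 alternatives, and leaving those 3 gene classes out of the totals shifted every gene by 0.14 on the log2 scale.

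The share of cells with at least 5 of the genes was 36.2% at 72 hpf and 18.6% at 48 hpf at 1000 UMIs, and 24.6% at 72 hpf and 10.0% at 48 hpf when 2 UMIs were required. Without thinning it was 88.5% at 72 hpf and 90.1% at 48 hpf, an order opposite to that at equal depth. At 72 hpf it was 64.3% without the 5% deepest cells and 67.3% without blood cells. The median odds ratio was 2.72 at 72 hpf and 2.49 at 48 hpf without thinning, 2.77 at 72 hpf without clusters, and 2.68 at 48 hpf when 2 UMIs were required.

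With the listed genes kept in the clustering, which gave 16 clusters, the group with the highest level had the same name in 11 of 20 cases, so the leading group of a gene depends on the clustering. No paired analysis was possible because each age has 1 library. Intervals cover counting error alone, and differences between animals were not measured. *egr1* at 48 hpf, found in 7.47% of thinned cells, had the lowest share of the 10 genes at either age.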
